A study of Homo sapiens with 12 samples.

Results

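Gene expression of A549 cells exposed for 48 h to cisplatin was compared with that of untreated A549 cells collected at the same time. Of the 12 arrays in the series, the 6 labelled 48h were chosen, namely 3 from cells treated with cisplatin and 3 from untreated cells. The other 6 arrays hold cisplatin-treated and untreated cells at 24 h. They entered the same 4-group fit, where they share in the estimate of the spread behind each p at 48 h, and the later response was set against theirs. A549 is an established human lung adenocarcinoma line with wild-type p53, grown here in multiwell plates, so that the arrays describe 1 line in culture and not a tumour. Cisplatin, a platinum drug that binds DNA and crosslinks its strands, was added a day after seeding at its no observed effect level (NOEL), a concentration that removes only a small share of the cells in a viability assay. Total RNA was hybridised to exon arrays, and the authors deposited 1 log2 value per transcript cluster and array. The methods describe independent experiments, and p-values below measure only the spread between these arrays.

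Cisplatin adducts stall replication and transcription, and the damage signal stabilises p53, a transcription factor that switches on genes of cell cycle arrest, DNA repair, cell death and stress metabolism. One of its targets, MDM2, marks p53 for degradation and so closes a feedback loop. A cell given a mild dose can pause and repair, while a stronger or longer signal favours the death genes.

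After brightest-cluster selection, 14232 genes were tested, and the gene with the smallest p was CDKN1A, which encodes p21, the inhibitor of cyclin-dependent kinases. FAS and EDA2R, both receptors of the TNF receptor family, came next, and DDB2, MDM2, BAX and SESN1, which are also p53 targets, were among the 19 genes that were higher at an unadjusted p under 0.005, the threshold of the study. Only 8 genes were lower at that threshold. At an adjusted p under 0.05 in limma with Benjamini-Hochberg adjustment, 0 genes passed in either direction (0% of the 14232), and CDKN1A had the smallest adjusted p, 0.0965. The 19 higher genes are 0.134% of all genes tested and the 8 lower ones 0.0562%. At the looser unadjusted threshold of 0.05, 90 genes (0.632%) lay higher and 74 (0.52%) lay lower. On 509 genes (3.58%) every cisplatin array lay above every untreated array, and on 346 genes (2.43%) every cisplatin array lay below.

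At 48 h the deviations of arrays with the same replicate number correlated at 0.313, 0.599 and 0.17. Cisplatin array 3 with untreated array 1 reached 0.265, above the last of these. At 24 h the same-numbered pairs had -0.336, 0.207 and -0.389. The pairing by replicate number is thus read from these same 48 h arrays, and the labels do not state it. With the number as a block and the 6 arrays of 48 h alone, 60 genes (0.422%) passed the threshold of 0.005 as higher and 21 (0.148%) as lower, and again 0 passed an adjusted p under 0.05 in limma. Untreated array 1 stood closer to the treated arrays than the other untreated arrays did in the p53 targets described here. Without untreated array 1, 27 genes (0.19%) passed the threshold of 0.005 as higher and 45 (0.316%) as lower. Untreated array 3 of the 24 h series, which enters the estimate of the spread, stood apart from the rest, with a mean correlation of 0.978 to the other arrays, against 0.989 to 0.993 for the others. CDKN1A passed an adjusted p under 0.05 at 48 h in limma without this array, and also without untreated array 1 of the 24 h series.

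CDKN1A had log2 values of 10.99, 11.01 and 10.75 on cisplatin arrays 1, 2 and 3, against 9.91, 9.88 and 9.82 on untreated arrays 1, 2 and 3. The gap between the conditions was wider than the range of the arrays within either condition. The mean was 10.92 ± 0.15 in cisplatin-treated cells and 9.87 ± 0.05 in untreated cells (SD, n = 3 each), a 2.06-fold difference. The log2 fold change, given throughout as cisplatin minus untreated, was 1.04 with a standard error of 0.15.

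FAS, the death receptor that recruits caspase 8 when its ligand binds, had 9.07, 8.87 and 8.96 on the cisplatin arrays, against 8.25, 7.75 and 7.77 on the untreated arrays. Its log2 fold change was 1.04 (standard error 0.19), so that FAS was 2.06-fold higher, and the arrays did not overlap. EDA2R, a receptor for an ectodysplasin isoform, had 10.25, 10.10 and 10.25 on the cisplatin arrays and 9.56, 9.04 and 9.17 on the untreated arrays, a log2 fold change of 0.95 (standard error 0.18). In both receptors untreated array 1 was the highest untreated array and still lay well below every treated array. The adjusted p from limma was 0.467 for both.

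The stretches directly upstream of the annotated starts of these 3 leading genes are shown with the GC box, the GGGCGG element bound by SP1-family factors, in capitals on either strand. They are RefSeq sequence of GRCh38.p14 and run 5′ to 3′ from 120 bases to 1 base before the start.
CDKN1A, chr6:36678594-36678713, plus strand: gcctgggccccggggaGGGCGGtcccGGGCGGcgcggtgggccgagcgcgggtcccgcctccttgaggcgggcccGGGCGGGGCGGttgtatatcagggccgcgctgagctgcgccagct
FAS, chr10:88990678-88990797, plus strand: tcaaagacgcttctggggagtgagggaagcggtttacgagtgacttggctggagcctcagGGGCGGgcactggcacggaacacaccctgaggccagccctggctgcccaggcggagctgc
EDA2R, chrX:66639270-66639389, minus strand: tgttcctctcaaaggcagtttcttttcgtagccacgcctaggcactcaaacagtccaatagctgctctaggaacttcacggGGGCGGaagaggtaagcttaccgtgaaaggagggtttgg
CDKN1A holds 4 GC boxes in this stretch, the last 2 of them overlapping, while FAS and EDA2R hold 1 each. The element is common, since 60.8% of the 11386 tested genes with a promoter window hold it. The window runs from 250 bases before to 50 bases after the start. Of the 36 p53 targets with such a window, 29 (80.6%) hold it. The 3 genes shown were picked by their values, and a match only describes the sequence. The full p53 consensus, searched on both strands with up to 3 mismatches and intact cores, matched 0 of the 36 p53 targets with such a window, against 31 of the 11386 tested genes with one (0.272%). This says only that these letters do not occur in these windows.

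**Figure D1:**
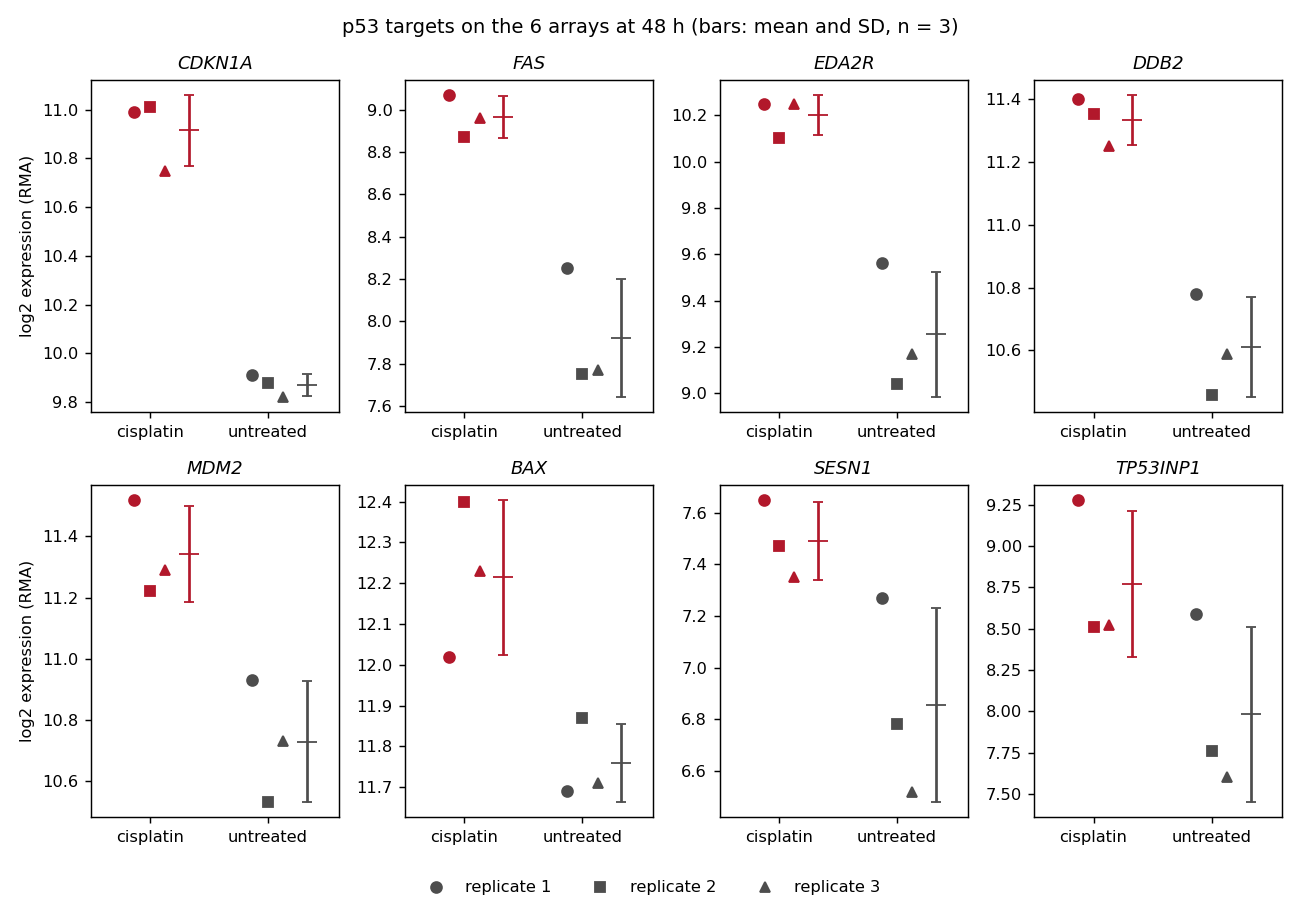
Log2 RMA expression (y axis, own range in each panel) of 8 p53 targets on the 3 cisplatin arrays (red) and the 3 untreated arrays (grey) at 48 h, with marker shape for the replicate number and bars for the mean and SD. All cisplatin arrays lie above all untreated arrays except in TP53INP1, where untreated array 1 at 8.59 lies above the cisplatin arrays at 8.51 and 8.52.

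Among the 54 p53 targets listed by role, 44 were tested. Of these, 36 had a positive log2 fold change, where 42.2% of all genes did, and their median was 0.24, against -0.02 over all genes. The looser threshold was passed by 18, all higher, and that of 0.005 by 7, where 0.632% and 0.134% of all genes were higher. On 20 of the 44 the arrays did not overlap, all in the direction of higher expression with cisplatin, as on 3.58% of all genes. With the replicate block 23 passed the looser threshold, where 2.57% of all genes were higher and 2.45% lower. In that fit 16 passed the threshold of 0.005, where 0.422% of all genes were higher. Of the 44, 20 are in the list of over-expressed genes that the study drew from these same arrays, so their direction is not independent evidence. Those 20 had a median of 0.44 and 17 were higher at an unadjusted p under 0.05. The 24 outside that list are what the same selection left, so their smaller values are not independent evidence either. These 24 had a median of 0.07 and SPATA18 alone was higher. With the replicate block 3 of the 24 were higher. Without untreated array 1 the number was 4, where 150 of all 14232 genes were higher.

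**Figure D2:**
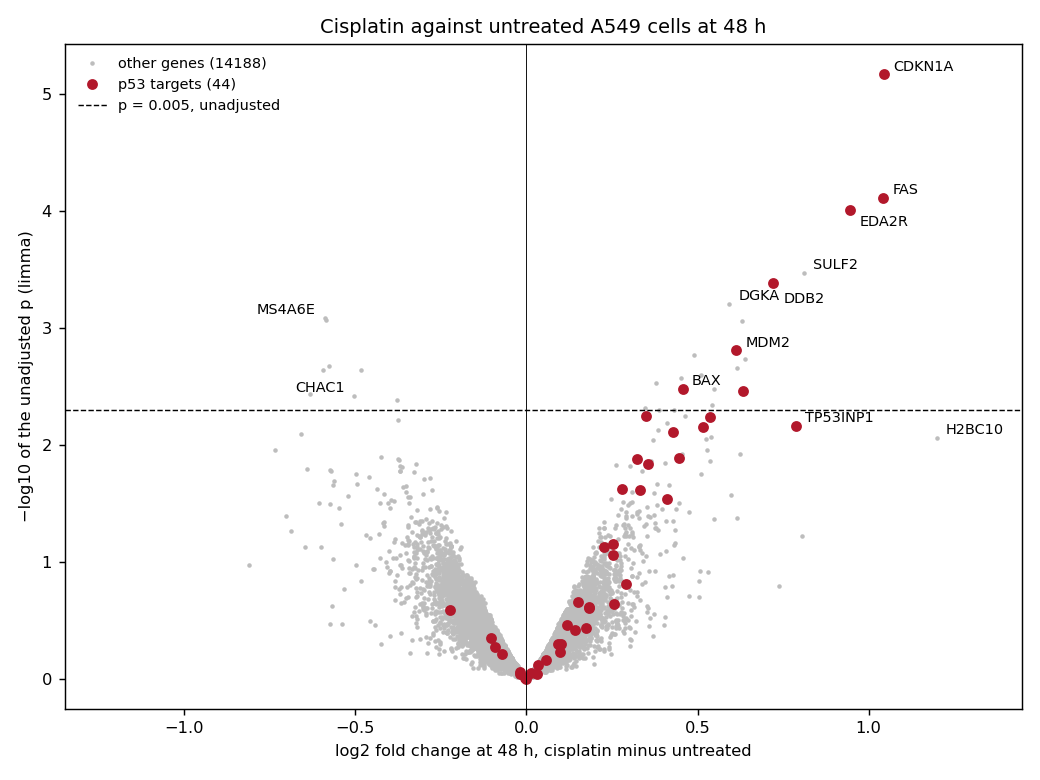
Log2 fold change at 48 h (x axis, cisplatin minus untreated) against −log10 of the unadjusted p from limma (y axis) for all 14232 genes, with the 44 p53 targets in red. Of the 19 genes above the dashed line on the right, 7 are p53 targets, led by CDKN1A, FAS and EDA2R, and none of the 8 above it on the left is one.

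Beside CDKN1A, the arrest genes showed small differences. PLK3, a polo-like kinase of the stress response, had 9.12, 9.11 and 9.24 on the cisplatin arrays against 8.95, 8.89 and 8.79 on the untreated arrays, a log2 fold change of 0.28 (standard error 0.11). All 8 arrest genes measured had a positive sign, and 2 of them, CDKN1A and PLK3, were higher at an unadjusted p under 0.05. Of all genes, 42.2% had a positive sign and 0.632% were higher at that threshold. CCNG1, the p53-induced cyclin G1, had 11.83, 12.03 and 11.87 on the cisplatin arrays and 12.02, 11.55 and 11.60 on the untreated arrays, so that untreated array 1 lay within the range of the treated ones. The log2 fold change of CCNG1 was 0.18, and 0.33 without that array (unadjusted p = 0.0404 from limma). Untreated array 1 was the highest untreated one here and in GADD45A, so leaving it out raises the value by construction. In GADD45A, a gene of growth arrest and repair, the same array lay above all treated ones, with 8.57, 8.55 and 8.59 on the cisplatin arrays and 8.69, 8.39 and 8.21 on the untreated arrays. GADD45A had a log2 fold change of 0.14 at 48 h, or 0.27 without untreated array 1, and 0.52 at 24 h. SFN, the 14-3-3 sigma protein that holds cells before mitosis, had 0.06 and PLK2, another polo-like kinase, had 0.18.

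The genes of cell death differed among themselves. Of the 19 measured, 14 had a positive sign and 6 were higher at an unadjusted p under 0.05, FAS and EDA2R among them. Of all genes, 42.2% had a positive sign and 0.632% were higher at that threshold. BAX, which opens the outer mitochondrial membrane, had 12.02, 12.40 and 12.23 on the cisplatin arrays and 11.69, 11.87 and 11.71 on the untreated arrays, a log2 fold change of 0.46 (standard error 0.13). TNFRSF10B, a death receptor for TRAIL, had 10.86, 10.88 and 10.93 with cisplatin against 10.53, 10.56 and 10.60 without, a log2 fold change of 0.32. Neither gene overlapped between the conditions, and the arrays of TNFRSF10B spanned less than 0.1 within each. PHLDA3, an inhibitor of AKT, had a log2 fold change of 0.43 and no overlap, and 0.28 without untreated array 3. TNFRSF10D, a TRAIL decoy receptor, had 0.23, also with no overlap, at an unadjusted p of 0.0744 from limma, or 0.0354 with the replicate block. In that fit 10 of the 19 were higher at an unadjusted p under 0.05, where 2.57% of all genes were.

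TP53INP1, a p53-induced gene that takes part in autophagy and cell death, had the largest spread of the leading targets. Its values were 9.28, 8.51 and 8.52 on the cisplatin arrays and 8.59, 7.76 and 7.60 on the untreated arrays. Array 1 was the highest in both conditions by about the same amount, and within each replicate number the cisplatin array was higher. The log2 fold change of 0.79 had a standard error of 0.25 in the 4-group fit (unadjusted p = 0.00688) and of 0.08 with the replicate number as a block (unadjusted p = 0.000129, adjusted p = 0.365 from limma).

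PMAIP1, the BH3-only protein NOXA, had the same arrangement, with 9.55, 8.99 and 9.35 on the cisplatin arrays and 9.25, 8.66 and 9.10 on the untreated arrays. It was higher with cisplatin within each number although the groups overlapped, and its log2 fold change was 0.29 (unadjusted p = 0.156, or 0.00860 with the block). BBC3, the BH3-only protein PUMA, had a log2 fold change of -0.09 at an unadjusted p of 0.541. APAF1, the scaffold of the apoptosome, and EI24, a protein of the endoplasmic reticulum, each had 0.25 with no overlap, at unadjusted p of 0.0883 for APAF1 and 0.0705 for EI24, or 0.0173 for APAF1 and 0.0199 for EI24 with the block. TP53I3, a quinone oxidoreductase, had 0.15.

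All 4 measured p53 targets of DNA repair were higher at an unadjusted p under 0.05, where 0.632% of all genes were. Their median log2 fold change was 0.43. DDB2, which recognises damaged bases in chromatin and starts nucleotide excision repair, had 11.40, 11.35 and 11.25 on the cisplatin arrays, against 10.78, 10.46 and 10.59 on the untreated arrays. Its log2 fold change was 0.72 (standard error 0.16), a 1.65-fold difference. XPC, its partner in damage recognition, had 8.72, 8.65 and 8.57 with cisplatin and 8.43, 8.27 and 8.19 without, a log2 fold change of 0.35 (standard error 0.11). Neither gene overlapped between the conditions. Over the other 14 nucleotide excision repair genes the median was 0.04, with 0 at an unadjusted p under 0.05 in limma.

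POLH, the polymerase that copies past crosslinked bases, had nearly equal values of 10.41, 10.42 and 10.42 on the cisplatin arrays and more scattered ones of 10.22, 9.89 and 9.81 on the untreated arrays. Its log2 fold change was 0.45 (standard error 0.16). The other 12 translesion synthesis genes had a median of -0.09, with 3 of positive sign and 0 at an unadjusted p under 0.05 in limma, a median that became 0.05 without untreated array 1. RRM2B, the p53-induced subunit of ribonucleotide reductase that supplies nucleotides for repair, had 10.08, 9.77 and 10.07 with cisplatin and 9.83, 9.36 and 9.51 without. Its arrays overlapped through untreated array 1, and the log2 fold change was 0.41 (standard error 0.17).

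MDM2, the ubiquitin ligase of the p53 feedback loop, had 11.52, 11.22 and 11.29 on the cisplatin arrays and 10.93, 10.53 and 10.73 on the untreated arrays, a log2 fold change of 0.61 (standard error 0.16). RCHY1, another ubiquitin ligase of p53, had a log2 fold change of -0.22 (unadjusted p = 0.26), and one of 0.0186 without untreated array 1. The 2 feedback genes measured thus lay on opposite sides of 0, and only MDM2 showed no overlap.

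Of the 11 p53 targets of metabolism and stress, 9 had a positive sign, where 42.2% of all genes did. At an unadjusted p under 0.05, 5 were higher, where 0.632% of all genes were. SESN1, a sestrin that restrains mTORC1, had 7.65, 7.47 and 7.35 on the cisplatin arrays and 7.27, 6.78 and 6.52 on the untreated arrays, a log2 fold change of 0.63 (standard error 0.18). SESN2, its paralogue, had 8.82, 8.94 and 8.61 with cisplatin and 8.44, 8.55 and 8.30 without, a log2 fold change of 0.36. Both sestrins kept the conditions apart, by less than 0.1 between the nearest arrays. TIGAR, which lowers glycolytic flux, had a log2 fold change of 0.52, SPATA18, which takes part in mitochondrial quality control, had 0.54, and ISCU, a scaffold for iron-sulfur clusters, had 0.33. In none of these 3 did the arrays overlap. FUCA1, a lysosomal fucosidase, had 0.17, and 0.38 without untreated array 1, its highest untreated array (unadjusted p = 0.0443 from limma).

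The mean deviation of the 44 p53 targets from their own means over the 12 arrays was 0.18, 0.16 and 0.12 on cisplatin arrays 1, 2 and 3 at 48 h, against -0.02, -0.16 and -0.19 on untreated arrays 1, 2 and 3. Untreated array 1 was thus nearer to the treated arrays, though still below each of them. It was the highest untreated array in 25 of the 44 targets, where it was so in 28.6% of all genes. Without it, the median of the 44 was 0.30, where leaving out the highest untreated array of a gene raises its value by construction. A straight line through its values over all genes, against the mean of the other arrays, had a slope of 1.04, against 0.97 and 0.99 for untreated arrays 2 and 3, and between 1.01 and 1.02 for the cisplatin arrays. The part of these differences between arrays in the p53 values was not tested.

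The genes that the study took forward held smaller values than the leading targets. ALDH3A1, which oxidises aldehydes, had 13.10, 13.01 and 13.05 on the cisplatin arrays and 12.75, 12.61 and 12.64 on the untreated arrays, with no overlap and a log2 fold change of 0.39 (standard error 0.12). It was 1 of 18 genes of the NRF2 antioxidant programme measured, whose median was -0.01, and no other member passed an unadjusted p under 0.05. With the replicate block AKR1C3, an aldo-keto reductase (unadjusted p = 0.0250), and GPX2, a glutathione peroxidase (unadjusted p = 0.0368), were higher as well. NINJ1, an adhesion protein of the plasma membrane, had a log2 fold change of 0.30 and CABYR, a calcium-binding protein first found in sperm, 0.43, or 0.27 without untreated array 3, both with no overlap. FHL2, a LIM domain cofactor, had 0.18 with overlap.

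The remaining 12 of the 19 higher genes are not on the p53 lists. SULF2, a sulfatase that edits heparan sulfate at the cell surface, had 9.72, 9.28 and 9.40 on the cisplatin arrays and 8.91, 8.48 and 8.57 on the untreated arrays, a log2 fold change of 0.81 (standard error 0.17). DGKA, a diacylglycerol kinase, had 9.73, 9.61 and 9.87 with cisplatin and 9.03, 9.08 and 9.33 without, a log2 fold change of 0.59 (standard error 0.13). DCP1B, a cofactor of mRNA decapping, had 9.59, 9.27 and 9.31 with cisplatin and 8.96, 8.62 and 8.70 without, a log2 fold change of 0.63 (standard error 0.15). These 3 genes had similar values at 24 h, with log2 fold changes of 0.61 for SULF2, 0.57 for DGKA and 0.60 for DCP1B.

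The other 9 of these 12 genes had log2 fold changes between 0.35 and 0.64. DSC3, a desmosomal cadherin, had a log2 fold change of 0.61, TNS4, a tensin of focal adhesions, 0.51, NEFL, the neurofilament light chain, 0.45, and STOM, the membrane protein stomatin, 0.38. ELAPOR1, a protein of endosomes and lysosomes, had 0.49, LACC1, an enzyme of purine metabolism, had 0.54, and FBXO22, an F-box subunit of a ubiquitin ligase, had 0.35. DNAI3, a dynein chain, had 0.55 and was the only gene of the 19 whose arrays overlapped. The 7 genes DSC3, TNS4, NEFL, STOM, LACC1, FBXO22 and DNAI3 lay outside the rule for named genes and were named after their values were seen.

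Of the 19 higher genes, 2 differed in effect between 48 h and 24 h at an unadjusted p under 0.05, against 1.15% of all genes. That contrast reuses the 48 h values by which the 19 were picked. NEFL had a log2 fold change of 0.45 at 48 h and 0.03 at 24 h (unadjusted p of the difference 0.0292). AQP9, a channel for water and glycerol, was the other. It had 4.96, 4.76 and 5.08 on the cisplatin arrays at 48 h and 3.95, 4.38 and 4.54 on the untreated arrays, a log2 fold change of 0.64, but -0.04 at 24 h (unadjusted p of the difference 0.0121). Its signal lay at percentile 3.06 of all genes. Of the 19 higher genes, 18 also had a positive log2 fold change at 24 h, as did 8245 of all 14232 genes. At that time 14 passed an unadjusted p under 0.05, as 1.9% of all genes did in that direction. The p at 24 h rests on the same estimate of the spread by which the 19 were picked. Of the 19, 13 are also in the list that the study drew from these arrays. The count of 14 is therefore not separate evidence.

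The 8 lower genes were mostly dim. Their median signal lay at percentile 12.1 of all genes, and CHAC1 alone lay above the median. MS4A6E, a membrane protein gene, had 4.32, 3.88 and 4.0 on the cisplatin arrays and 4.73, 4.57 and 4.68 on the untreated arrays, a log2 fold change of -0.59. OR1D2, an olfactory receptor, had 5.57, 5.82 and 5.51 with cisplatin and 6.02, 6.12 and 6.51 without, also -0.59. GPR12, a G protein-coupled receptor, likewise had -0.59, AGBL3, a tubulin deglutamylase, -0.58, SAA4, a serum amyloid protein, -0.48, LINC00474, a long noncoding RNA, -0.63, and HYDIN, a protein of motile cilia, -0.38. KRTAP13-1, a hair keratin-associated protein that did not pass this threshold, had -0.66. On all 8 genes at the threshold the arrays did not overlap, where 2.43% of all genes lay lower in this way. On 6 of them the effect at 48 h differed from that at 24 h at an unadjusted p under 0.05, against 1.15% of all genes. Both counts reuse the 48 h values by which the 8 were picked, so they are not separate evidence.

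CHAC1, an enzyme that breaks down glutathione and is switched on by the integrated stress response, was the brightest of the 8. It had 8.0, 8.32 and 8.13 on the cisplatin arrays and 8.33, 8.93 and 8.70 on the untreated arrays, so that cisplatin array 2 and untreated array 1 nearly touched. The log2 fold change was -0.51 (standard error 0.15), and -0.67 without untreated array 1. ASNS, asparagine synthetase, another gene of that response, had 9.82, 10.14 and 9.96 with cisplatin and 10.14, 10.39 and 10.25 without, a log2 fold change of -0.29 (standard error 0.13, unadjusted p = 0.047). In both genes the cisplatin array was the lower one within each replicate number. At 24 h CHAC1 had a log2 fold change of 0.23 and ASNS 0.07, and the difference between the times had an unadjusted p of 0.00311 for CHAC1 and 0.0793 for ASNS.

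Upstream of the starts of both genes lies the motif TGATGNAA, the composite element read by C/EBP and ATF factors, shown in capitals in stretches of RefSeq sequence of GRCh38.p14 written 5′ to 3′ along the gene. In CHAC1 the motif lies on the opposite strand.
CHAC1, chr15:40953231-40953310, plus strand: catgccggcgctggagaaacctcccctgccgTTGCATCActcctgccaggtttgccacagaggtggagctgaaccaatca
ASNS, chr7:97872439-97872518, minus strand: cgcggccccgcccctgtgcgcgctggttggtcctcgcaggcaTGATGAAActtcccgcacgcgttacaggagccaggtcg
Searched on both strands, this motif lies in the windows of 4 of the 19 genes of the unfolded protein and integrated stress response with a window, against 2.36% of the tested genes with one. The 4 are CHAC1, ASNS, ATF3 and HERPUD1, and only CHAC1 and ASNS of the 19 genes measured passed an unadjusted p under 0.05, both lower. HERPUD1, a protein of endoplasmic reticulum degradation, had 10.92, 10.65 and 10.91 on the cisplatin arrays and 10.80, 10.50 and 10.70 on the untreated arrays, a log2 fold change of 0.16 (unadjusted p = 0.253), higher within each replicate number. ATF3, a transcription factor of the stress response, had 0.02 (unadjusted p = 0.88). The motif was chosen after the values were seen, and a match is a description of the sequence. The median of the 19 genes was 0.01, and 12 of them had a positive sign.

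**Figure D3:**
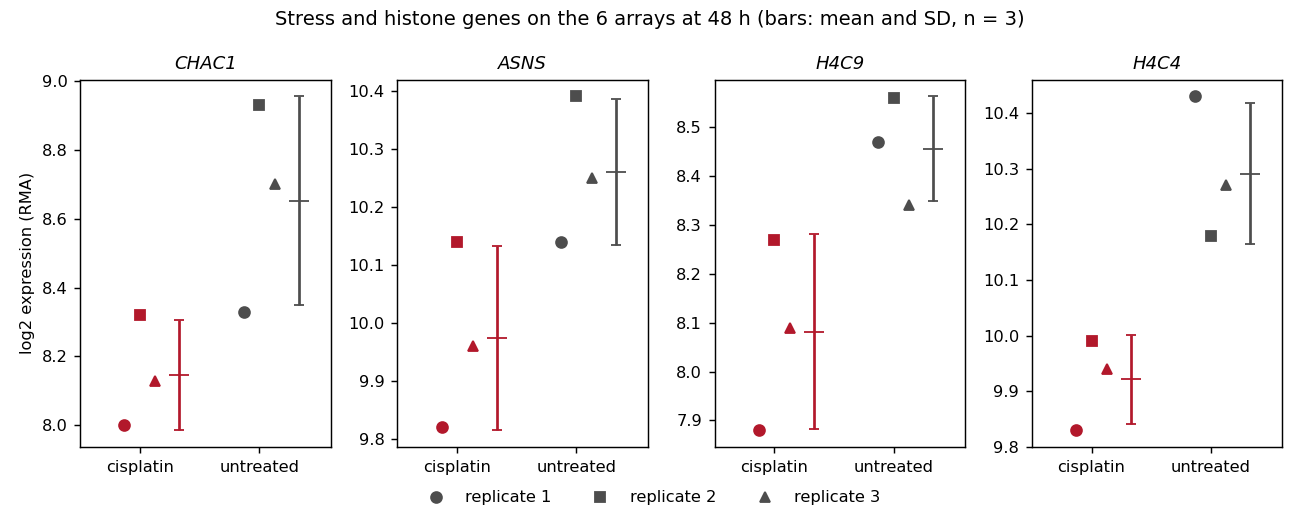
Log2 RMA expression (y axis, own range in each panel) of CHAC1, ASNS and the histone genes H4C9 and H4C4 on the 3 cisplatin arrays (red) and the 3 untreated arrays (grey) at 48 h, with marker shape for the replicate number and bars for the mean and SD. The cisplatin arrays lie at or below the lowest untreated array in each panel, and nearest to it in CHAC1 (8.32 against 8.33) and ASNS (10.14 on both).

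Histone genes of the clusters on several chromosomes, most of them expressed in S phase, had a median log2 fold change of -0.12 over the 50 measured. The looser threshold was passed by 6 that were lower and by H2BC10 alone as higher. Over all genes 0.52% were lower and 0.632% higher at that threshold. Of the 50, 13 had a positive sign, where 42.2% of all genes did. Without cisplatin array 1 the median of the 50 was -0.03. Without untreated array 1 the number lower was 3, where 4.43% of all genes were lower. H2BC10 had 4.66, 4.79 and 4.34 on the cisplatin arrays and 3.45, 3.37 and 3.38 on the untreated arrays, a log2 fold change of 1.20, while its untreated arrays at 24 h lay between 3.80 and 5.99. H4C9 had 7.88, 8.27 and 8.09 on the cisplatin arrays and 8.47, 8.56 and 8.34 on the untreated arrays, a log2 fold change of -0.37. H4C4 had 9.83, 9.99 and 9.94 with cisplatin and 10.43, 10.18 and 10.27 without, also -0.37 (unadjusted p = 0.0151, or 0.0564 without untreated array 1). The largest negative value was that of H2AC15, -0.50, and H4C2 had -0.42, both named after their values were seen. H2AC15 had -0.32 without untreated array 2 and H4C2 had -0.23 without cisplatin array 1. Genes of the same histone type code for near-identical proteins, and how far their probes tell them apart was not tested.

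The mean deviation of the 30 histone genes above the median signal was -0.17, 0.15 and -0.03 on cisplatin arrays 1, 2 and 3 and 0.27, 0.19 and 0.05 on untreated arrays 1, 2 and 3. The conditions therefore overlapped through cisplatin array 2 and untreated array 3, while the cisplatin array was lower within each number. Of the 30, 3 had a positive sign, where 42.2% of all genes did. At the looser threshold 5 were lower, where 0.52% of all genes were. Without untreated array 1 the number was 2, where 4.43% of all genes were lower. At 24 h the median of the 30 was 0.03, against -0.19 at 48 h.

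Genes that replicate DNA or run the cell cycle had medians near that of all genes. Over 33 DNA replication genes the median log2 fold change was -0.04, over 32 genes of mitosis 0.02, over 16 G1/S cyclins, kinases, RB and E2F genes -0.03 and over 14 checkpoint genes -0.02. In limma 0 of these genes passed the looser threshold. With the replicate block 5 were higher, CCNE1 and TOP2A among them, and MCM2 was lower, where 2.57% of all genes were higher and 2.45% lower. CCNE1, cyclin E1, had 9.97, 9.93 and 10.03 on the cisplatin arrays and 9.78, 9.74 and 9.81 on the untreated arrays, a log2 fold change of 0.20. TOP2A, the topoisomerase of dividing cells, had 0.23 with overlap, and MCM2, a subunit of the replicative helicase, -0.21 with no overlap. Of the 33 DNA replication genes, 4 lay lower with no overlap, where 2.43% of all genes did. Another 6 lay higher with none, where 3.58% of all genes did. The signal of the 33 lay at a median percentile of 83.5. Of the 3558 brightest genes, where that percentile falls, 73 lay lower and 263 higher with no overlap. The genes of homologous recombination and Fanconi anaemia, which resolve crosslinks, had a median of 0.01 over 25 members, and those of base excision, mismatch and end-joining repair -0.03 over 15.

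Single genes stood out from lists that were otherwise near 0. CYCS, cytochrome c, had 8.61, 8.68 and 8.63 on the cisplatin arrays and 8.87, 9.02 and 8.85 on the untreated arrays, a log2 fold change of -0.28 (standard error 0.11), among 11 genes of the apoptosome and caspases with a median of 0.03. MT1X, a metallothionein that binds metals, had 6.79, 6.86 and 7.30 with cisplatin and 6.05, 6.65 and 6.67 without, a log2 fold change of 0.53 (standard error 0.18, unadjusted p = 0.0111). Untreated array 1 was the lowest, and without it the value was 0.33 (unadjusted p = 0.0678). The 11 genes of platinum transport, copper chaperones and metallothioneins had a median of 0.01. RPS27L, a p53-induced relative of a ribosomal protein, had 9.56, 9.26 and 9.59 with cisplatin and 9.20, 8.23 and 8.56 without, a log2 fold change of 0.81 with a standard error of 0.39 (unadjusted p = 0.0606, or 0.00253 with the replicate block). Its untreated arrays spanned nearly 1 log2 unit, and the other ribosomal protein genes gave the list of 30 a median of -0.07.

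**Figure D4:**
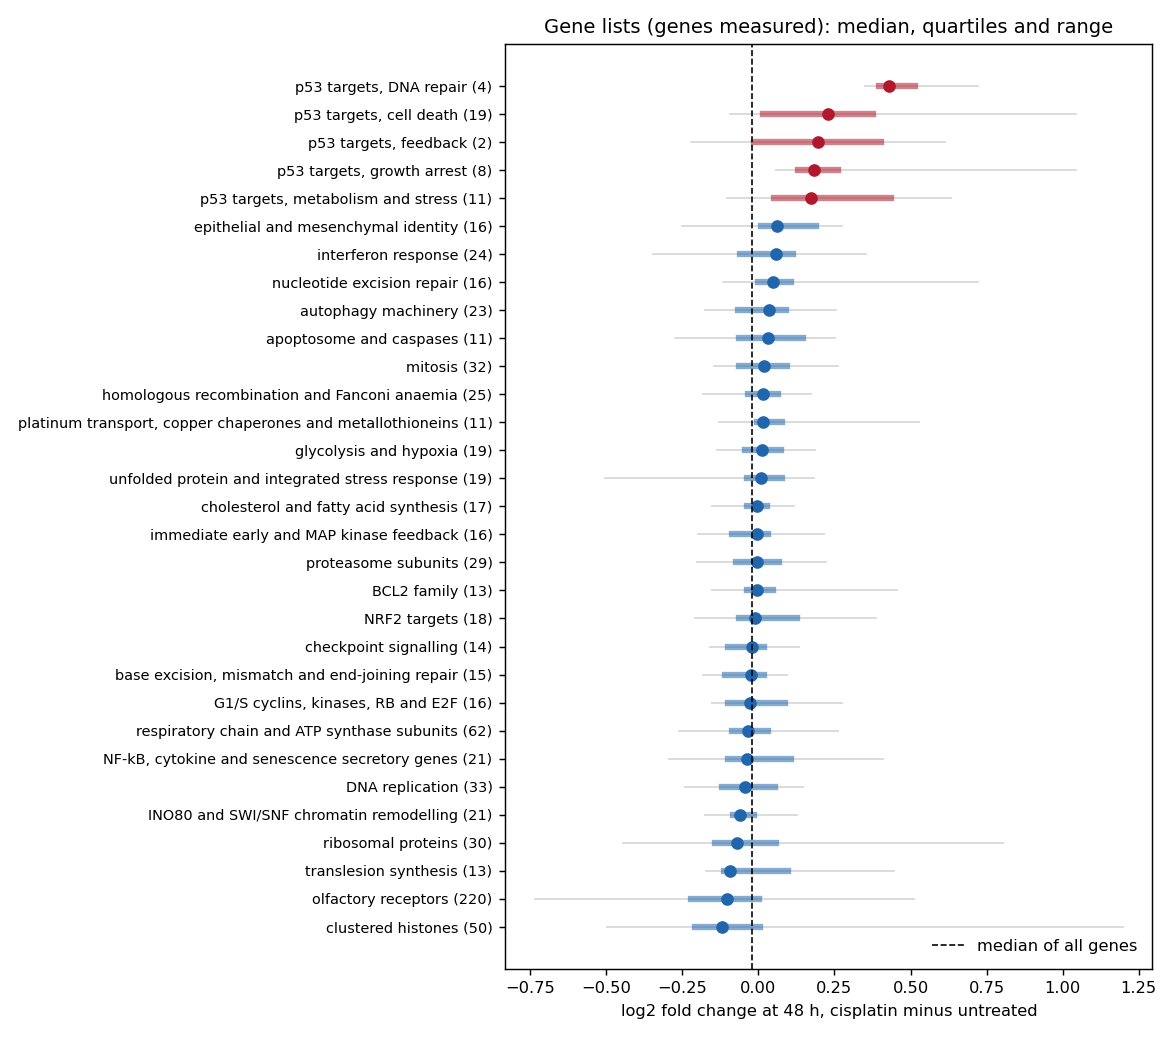
Median (point), quartiles (thick line) and full range (thin line) of the log2 fold change at 48 h (x axis, cisplatin minus untreated) for each gene list defined by function, without the marker lists and those taken from the study, with the number of genes measured and the p53 lists in red. The 5 p53 lists have medians between 0.17 and 0.43, and every other list drawn has its median between -0.12 and 0.06, around the dashed median of all genes at -0.02.

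The leading p53 targets of 48 h were higher at 24 h as well. Over the 44 p53 targets the median log2 fold change was 0.24 at 48 h and 0.37 at 24 h. Of the 44, 34 were larger at 24 h, as were 8387 of all 14232 genes. The signal of the 44 lay at a median percentile of 70.2. Among groups of 3558 genes ordered by signal, the next-to-brightest, where that percentile falls, had medians of -0.01 at 48 h and 0.10 at 24 h. The mean deviation of the 44 was -0.06, -0.18 and -0.39 on untreated arrays 1, 2 and 3 at 24 h. The last is the array that stood apart. How far the larger values at 24 h rest on that array, or go with genes of similar signal, was not tested. The values at the 2 times had a Pearson r of 0.884 across the 44 genes, and of 0.226 across all genes, where genes are not independent replicates and share the arrays of each time. For 0 of the 44 did the effect at 48 h differ from that at 24 h at an unadjusted p under 0.05 in limma, where 1.15% of all genes did. CDKN1A had 1.04 at 48 h and 1.23 at 24 h, FAS had 1.04 at 48 h and 0.91 at 24 h, and EDA2R had 0.95 at 48 h and 1.10 at 24 h. POLH had 0.45 at 48 h and 0.78 at 24 h, and SESN2 had 0.36 at 48 h and 0.63 at 24 h. Over all genes, 0 (0%) passed an adjusted p under 0.05 for the difference between the times in limma.

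**Figure D5:**
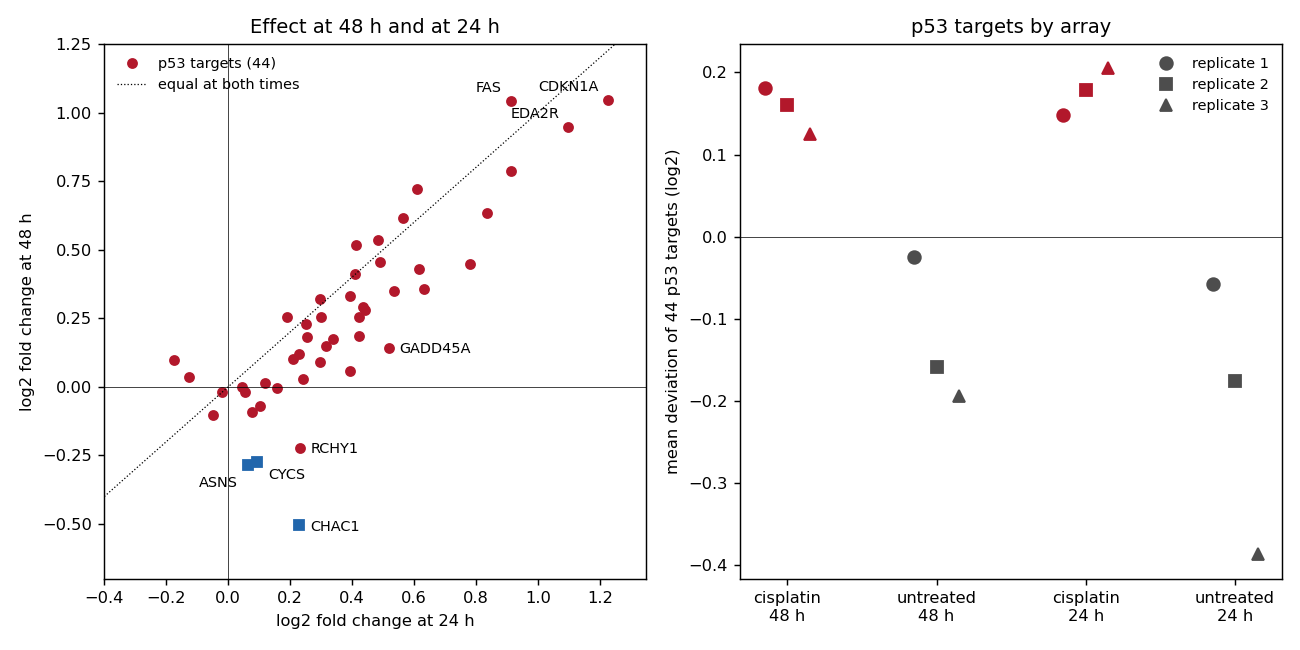
Left, log2 fold change at 48 h (y axis) against that at 24 h (x axis) for the 44 p53 targets (red) and for CHAC1, ASNS and CYCS (blue squares), with the line of equal values. Right, mean deviation of the 44 p53 targets (log2, from their means over the 12 arrays) on each array by treatment and time: at both times every cisplatin array (red) lies above every untreated array (grey), untreated array 1 at 48 h nearest to them at -0.02.

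Markers of cell identity gave a mixed picture of signal, which differs between probes for reasons other than abundance. The 5 epithelial markers lay between percentiles 31.1 (EPCAM, an adhesion molecule) and 99.9 (KRT8, a keratin of simple epithelia) of all genes. The 3 leukocyte markers lay between 1.0 (PTPRC, the common leukocyte antigen) and 42.3 (CD14, a monocyte receptor), the 4 endothelial markers between 9.2 and 29.7, and the 4 fibroblast markers between 1.9 (DCN, a proteoglycan) and 52.1 (COL1A1, a collagen chain). SFTPB, SFTPC and SFTPD, surfactant genes of alveolar cells, lay between 23.1 and 38.8. Of the 19 marker genes tested, 0 passed an unadjusted p under 0.05 in limma. With the replicate block KRT19, a keratin (unadjusted p = 0.0156), and CDH1, the epithelial cadherin (unadjusted p = 0.0247), were higher, as were 2.57% of all genes. Among the other epithelial markers the log2 fold change was 0.10 for KRT8, -0.03 for KRT18, another keratin, and -0.22 for EPCAM. Several p53 targets, among them BTG2, FDXR, GDF15, PCNA and PPM1D, were not analysed here.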

How the data were processed

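RNA of A549 cells was measured on 12 Affymetrix exon arrays, 3 each for cisplatin and untreated at 48 h and at 24 h. Per the labels, the tools of the authors were Affymetrix Power Tools, Affymetrix Expression Console and limma, and RMA (background correction, quantile normalization and median polish) was their normalization. The deposited values are log2 intensities per transcript cluster, between 2.14 and 14.31. Software versions of that step and the genome build are not given in the sources used here. The methods mention that an outlier sample set at 24 h was discarded, while all 12 arrays were used here. Arrays carry no depth, and precision rests on how many there are.

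Of 22011 clusters, 14432 were paired with 1 gene symbol by the probe table, 2408 with several and 5171 with none. The brightest cluster by mean over the 12 arrays was kept for each gene, leaving 14232. A model with 4 groups was fitted with limma 3.58.1 in R 4.3.3, with 8 residual degrees of freedom, the effect at 48 h being the contrast of cisplatin minus untreated, with Benjamini-Hochberg adjustment over all genes. The script was tested on simulated data. The unadjusted threshold of 0.005 is that of the study. Clusters with several symbols or none were left out.

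The replicate numbers were taken to pair the arrays at 48 h, since the deviations of same-numbered arrays from their group means correlated at 0.313, 0.599 and 0.17. Pairs of different numbers at 48 h lay between -0.457 and 0.265, the highest being cisplatin array 3 with untreated array 1, above the value of the third same-numbered pair. At 24 h those correlations were -0.336, 0.207 and -0.389. The study describes 3 independent experiments, and the labels do not say that a number marks one of them.

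The genes named are the 10 with the smallest p in each direction, the genes the study names for RT-qPCR or follow-up, the p53 targets, up to 3 members of each other list with the smallest p, and the 5 with the smallest p for the difference between times. Members and lists were chosen with earlier results of these data known. Alternatives were the 6 arrays alone, a replicate block, leaving out each array, array weights, variance trend, quantile normalization, median centring, a filter on dim genes, cluster means, all clusters and another threshold. The 6 arrays at 48 h without untreated array 1, and array weights by the gene-by-gene method, were added after seeing the data.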

Additional observations from a re-analysis of the deposited data

How the results depend on the processing

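The count of genes at an adjusted p under 0.05 in limma was 0 with the 4-group fit. It was 1, CDKN1A, with an intensity trend and robust variances, with quantile normalization, with genes above the median level only and at an adjusted p under 0.1, and 0 to 1 over the 12 fits that leave out an array, the 1 being CDKN1A without untreated 24 h array 1 or 3. With array weights by the gene-by-gene method, chosen after seeing the data, 374 genes passed, 98 higher and 276 lower, while the default method of weighting gave 0. The 2 methods weighted untreated 48 h array 3 at 4.63 and 0.151, and the default method stopped before it had converged.

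At an unadjusted p under 0.005, 27 genes passed. With the replicate block the count was 41 in the 4-group fit and 81 in the fit of the 6 arrays. The count was 17 with genes above the median level, 16 higher and 1 lower, 44 with all clusters, 203 with the 48 h arrays alone and untreated 48 h array 1 left out, chosen after seeing the data, and 908 with the gene-by-gene weights. Over the fits that leave out an array it lay between 14 and 72. It was 72 without untreated 48 h array 1 (27 higher, 45 lower), 42 without untreated 24 h array 3, 17 without cisplatin 48 h array 3, and 14 without untreated 48 h array 3 or cisplatin 48 h array 1. Of the 19 higher genes, 19 were also higher in the fit of 6 arrays with the replicate block and 13 without untreated 48 h array 1, and of the 8 lower genes 4 and 6 were lower there.

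The number of genes whose arrays did not overlap was 855. It was 530 with genes above the median level, 1514 with all clusters, and between 1382 and 4535 with 1 of the 6 arrays left out, where fewer arrays make no overlap easier to reach. The highest count, 4535, came without untreated 48 h array 1, with 1311 higher and 3224 lower. For the difference between 48 h and 24 h, 0 genes passed, and 1 passed with the gene-by-gene weights and without untreated 24 h array 1. The replicate block gave 0 there and changed no other call at an adjusted p under 0.05.

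Of 1610 values of 68 named genes under 24 alternatives, 1554 kept their sign and their side of the threshold, 50 newly passed, most with the gene-by-gene weights, and 6 changed sign. With 1 array left out, BBC3 ranged between -0.25 (without untreated 48 h array 1) and 0.0073 (without cisplatin 48 h array 1), RCHY1 between -0.36 and 0.0186 (without untreated 48 h array 1, also with the 48 h arrays alone), and SFN between -0.0589 (without cisplatin 48 h array 2) and 0.18. With array weights SFN had -0.12. Over all alternatives the median of the 44 p53 targets lay between 0.19 and 0.30, that of the 24 outside the study's list between 0.02 and 0.11, and that of the 50 histone genes between -0.19 and -0.03. Dim clusters limit the lower genes most.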

Other observations

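Dim genes differed from bright ones at 48 h as a whole. The median log2 fold change was -0.05 among the 3558 genes with the lowest signal, -0.04 and -0.01 in the next groups of this size and 0.01 among the 3558 brightest, so that a small negative value of a dim gene is common in this comparison. Without untreated array 1 the medians were -0.13 and -0.11 in the 2 dimmer groups and 0.0022 and 0.03 in the 2 brighter ones. The 220 olfactory receptor genes, whose signal lay at a median percentile of 8.95, had a median of -0.10 at 48 h, and of -0.18 without untreated array 1. Their mean deviation was -0.12, -0.04 and -0.17 on cisplatin arrays 1, 2 and 3 and -0.19, 0.14 and 0.06 on untreated arrays 1, 2 and 3.

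H2BC10, a histone gene at percentile 1.77 of signal, had the largest difference between the times. At 48 h it had 4.66, 4.79 and 4.34 on the cisplatin arrays and 3.45, 3.37 and 3.38 on the untreated arrays, a log2 fold change of 1.20. At 24 h it had 3.84, 3.26 and 2.88 on the cisplatin arrays and 3.80, 5.17 and 5.99 on the untreated arrays, a log2 fold change of -1.66. The unadjusted p of the difference was 0.000154, and it did not pass adjustment over all genes in limma.

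The 21 measured genes of the INO80 and SWI/SNF chromatin remodelling complexes had a median log2 fold change of -0.06 at 48 h and 0.10 at 24 h, with 4 of positive sign at 48 h and 0 at an unadjusted p under 0.05 there in limma. Without untreated array 1 the median at 48 h was -0.04 and 8 had a positive sign. The signal of the 21 genes lay at a median percentile of 68.3. The next-to-brightest group of 3558 genes, where that percentile falls, had medians of -0.01 at 48 h and 0.10 at 24 h, so the value at 24 h is that of genes of similar signal.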
